A study of Mus musculus with 13 samples.

Results

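Dendritic cells that carry the chemokine receptor Ccr7 and the actin-bundling protein Fscn1 were examined in single-cell RNA sequencing data of mouse colon tumors and of the mucosa beside them. Cells were chosen on measured values of the same libraries: at least 1 UMI (unique molecular identifier, 1 counted RNA molecule) of Ccr7, at least 1 of Fscn1 and at least 3 of the MHC class II gene H2-Aa, under 20 UMIs of the macrophage complement genes C1qa, C1qb and C1qc together, and 0 of the T cell gene Cd3e and the B cell gene Cd79a. Of 118892 barcodes kept, 637 met the rule, of which 628 were in tumors and 9 in mucosa. These 637 cells are called members below. All mice were C57BL/6J animals of the genotype ApcMin/+; p16cis/cis, in which a mutant copy of the tumor suppressor gene Apc is combined with an engineered epimutation of p16, and all were on the supplemented diet, which is enriched in methyl donors and their cofactors. Mouse A, aged 24 weeks, gave tumors 5 to 8 and mucosa 2, mouse B (23 weeks) gave tumors 9 and 10 and mucosa 3, and mouse C (20 weeks) gave tumors 1 to 4 and mucosa 1. No library came from the control diet, so no effect of diet was compared.

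A dendritic cell in tissue takes up antigen and senses microbes. On maturation it lowers uptake, shows peptides and costimulatory molecules at its surface, and expresses Ccr7, the receptor that guides it along the chemokines Ccl19 and Ccl21 into lymphatic vessels and the T cell zones of lymph nodes. Both main lineages of conventional dendritic cells, type 1 (Xcr1, Clec9a) and type 2 (Sirpa, Irf4), can enter this state, which in tumors is known for the T cell attracting chemokines Ccl17 and Ccl22, for interleukin 12 and for regulatory molecules such as PD-L1 (gene Cd274).

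Tumors held 57221300 to 93157039 UMIs each and mucosa libraries 84883382 to 116133079. Tumor members had a median of 8440 UMIs (lowest 912, highest 62475). Mucosa was dissociated with EDTA and TrypLE and tumors with an enzyme kit, so tissue and dissociation cannot be told apart. All 7 libraries labelled female held more UMIs of 4 Y-linked genes than of Xist, with at least 6949 UMIs of the former and at most 10 of the latter in any library, and sex was therefore not used. Of 135282 barcode sequences, 2284 occurred in more than 1 library. No sequence of a member was a member in another library, and 18 of the 637 occurred elsewhere at all.

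The label was checked on Ccl22, Ccl17 and Il4i1, marker genes of this state that the rule did not use. A UMI of Ccl22, a chemokine for Ccr4-bearing T cells, was found in 513 of 628 tumor members (81.7%), of Ccl17, its close relative, in 360 (57.3%), and of Il4i1, a secreted amino acid oxidase, in 569 (90.6%). In tumor neutrophils, which should lack them, Ccl22 was seen in 0.0616% of cells, Ccl17 in 0.101% and Il4i1 in 0.105% at a median of 2807 UMIs, and in epithelial cells at a median of 11093 UMIs the shares were 0.126%, 0.599% and 0.399%. The 3 markers were far above the shares in these cells. Just outside the rule, 707 tumor barcodes lacked only Fscn1 and had pooled levels of 325 CPM (counts scaled to 1000000 UMIs) of Ccl22 and 249 of Il4i1. The 255 that lacked only Ccr7 had 6.12 and 4.59 CPM. The 128 that failed only the limit on H2-Aa had 418 and 403 CPM. Just inside, 46 members had a single UMI of Fscn1, 6 a single UMI of Ccr7 and 16 exactly 3 of H2-Aa. The rule thus left out Ccr7+ barcodes with Ccl22 and no Fscn1 UMI, and others with Ccl22 and under 3 UMIs of H2-Aa.

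Members were a small share of every tumor and rarer in mucosa. In the tumors they made up from 0.3003% (tumor 6, 32 of 10656 barcodes) to 1.17% (tumor 2, 126 of 10774) of barcodes, with a median of 0.663%. Mucosa 1 held 5 of 5188 (0.0964%, 95% exact binomial interval 0.0313 to 0.225), mucosa 2 held 4 of 10684 (0.0374%, 0.0102 to 0.0958), and mucosa 3 held 0 of 9149, which allows a share of up to 0.0328% by a limit of 3 counts and 0.0403% by the exact binomial interval. Each of the 10 tumors exceeded its own mouse's mucosa. The mean over mice was 0.6997% ± 0.19 in tumors and 0.0446% ± 0.0486 in mucosa (SD, n = 3 mice), a difference of 0.655 percentage points ± 0.206. The choice of mucosa within each mouse was permuted, and this exact two-sided permutation test gave p = 0.0133, the smallest value that its 75 assignments allow. These intervals cover counting error only. Among barcodes with a UMI of the leukocyte gene Ptprc the difference was 0.588 percentage points (exact permutation p = 0.0133).

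Among dendritic cells alone the difference was not shown. Members were 20.6% to 55.2% (median 41.5%) of the cells in 3 dendritic cell gates in tumors, against 5 of 19, 4 of 6 and 0 of 11 such cells in mucosa 1, 2 and 3, and the same test gave a difference of 12.4 percentage points with p = 0.48. So few dendritic cells in mucosa give this share little precision. Members outnumbered type 1 dendritic cells in 9 of 10 tumors and Cd209a dendritic cells, the class of the comparison described next, in 7 of 10. These are counts of gated barcodes. The gates ask for different genes and numbers of UMIs, and the classes differed in depth, so the counts do not measure the relative abundance of the cell types. Between mice the share of members did not differ beyond the spread of their tumors, with means of 0.494% (mouse A), 0.868% (mouse B) and 0.738% (mouse C) (F = 1.51, exact permutation test over 3150 arrangements, p = 0.287).

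**Figure D1:**
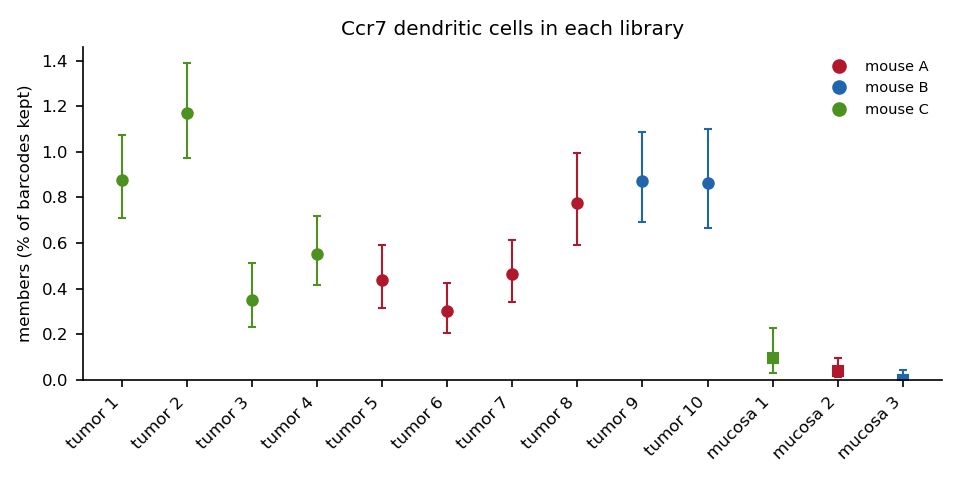
Members as a percentage of barcodes kept in each of the 13 libraries, with 95% exact binomial intervals for counting error. Circles are tumors, squares mucosa, and colors the 3 mice. Each tumor, from 0.3003% to 1.17%, sits above the 3 mucosa libraries, the highest of which is at 0.0964%.

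Members were compared with 2 other dendritic cell classes of the same tumors, on UMIs summed per tumor and class with the library as a block. Cd209a dendritic cells had a UMI of Cd209a, a lectin of type 2 and monocyte-related dendritic cells, and none of Xcr1 or Clec9a. Type 1 dendritic cells had at least 2 UMIs of Xcr1 and Clec9a together. Both met the limits on H2-Aa, C1q, Cd3e and Cd79a, and lacked Ccr7 or Fscn1. Tumors with at least 20 cells of both classes were used, which left 9 tumors in each comparison (567 members against 499 Cd209a cells without tumor 8, and 564 against 352 type 1 cells without tumor 10). Median depth was 8440 UMIs in members, 6744 in Cd209a cells and 13846.5 in type 1 cells. The genes of the gates themselves were left out of all counts of lists below, except in the search of windows at gene starts. Differences are log2 fold changes with their standard error from the quasi-likelihood test of edgeR, with Benjamini-Hochberg adjusted p over all genes tested. At adjusted p under 0.05, 3223 of 6317 genes (51.0%) differed from Cd209a cells, 1635 higher (25.9%) and 1588 lower (25.1%) in members, and 3544 of 6305 (56.2%) differed from type 1 cells, 1737 higher (27.5%) and 1807 lower (28.7%). Since most genes were called, a single called gene says little, and lists are read by how one-sided they were and by the size of their differences. The median over all genes was 0.00 in both comparisons. The Cd209a class also held RNA of plasmacytoid dendritic cells, with Siglech at 23.7 to 253 CPM over the tumors, and of monocytes.

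The 12 genes of the chemokine list summed to 2394 to 7657 CPM (median 5748) in members, 1979 to 5652 (median 3486) in Cd209a cells and 947 to 2345 (median 1478) in type 1 cells. These sums overlapped with those of Cd209a cells, were not tested, and single genes went both ways. Against Cd209a cells, 4 of 11 tested chemokine genes were higher, 4 lower and 3 did not pass (median −0.49), and against type 1 cells 6 of 10 were higher, 1 lower and 3 did not pass (median 1.37). Ccl22 ran from 474 CPM (tumor 2) to 1599 (tumor 5) with a median of 838 in members, from 0 to 73.6 (median 6.69) in Cd209a cells and from 3.3 to 66.4 (median 24.8) in type 1 cells. The lowest tumor of the members lay above the highest of both other classes. Its differences were 5.50 ± 0.35 and 4.93 ± 0.34 on the log2 scale (edgeR adjusted p = 2.6e-09 and 7.65e-09, higher in 9 of 9 tumors in each). Ccl17 was at 357 to 1288 CPM (median 566) in members, 22.1 to 541 (median 133) in Cd209a cells and 76 to 599 (median 178) in type 1 cells, so its ranges overlapped, and the differences were smaller at 1.97 ± 0.41 and 1.58 ± 0.28 (edgeR adjusted p = 0.000715 and 0.000161). Ccl5, which draws T cells and natural killer cells, was among the genes of highest fold against type 1 cells, with 435 to 3002 CPM (median 1709) against 0 to 79.2 (median 9.26), a difference of 7.14 ± 0.26. Cxcl16, the ligand of Cxcr6 on T cells, was higher by 1.74 ± 0.18 and 1.94 ± 0.16. Cxcl10, an interferon-induced chemokine for Cxcr3, was lower than in Cd209a cells (−1.85 ± 0.26, in 9 of 9 tumors) and higher than in type 1 cells (2.08 ± 0.34, in 9 of 9). Cxcl9, another Cxcr3 ligand, did not pass in either comparison (−0.49 ± 0.34 and −0.03 ± 0.36). The 4 genes lower than in Cd209a cells were Cxcl10, Ccl4, Ccl6 and Ccl9, of which the last 3 are chemokines known from monocytes and macrophages.

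Genes of the migration list, which also holds the less direct Samsn1 and Cacnb3, were higher with 1 exception. The list was chosen with earlier results of these data known. Beyond Ccr7 and Fscn1, which chose the cells, 7 of 8 tested genes of this list were higher than in Cd209a cells (median 2.20) and 8 of 8 than in type 1 cells (median 2.49). Samsn1, an adaptor protein of immune cells, stood at 824 to 1754 CPM (median 1577) in members against 122 to 232 and 26.4 to 103 in the other classes. Its differences were 3.21 ± 0.14 and 5.01 ± 0.18. Cacnb3, a calcium channel subunit, was higher by 6.46 ± 0.32 and 6.12 ± 0.22, and Marcks, which tethers actin to the membrane, by 2.33 ± 0.10 and 2.07 ± 0.11. Myo1g, a membrane-bound myosin, followed with 2.54 ± 0.21 and 2.85 ± 0.12. Gpr183, a receptor for oxysterols that positions dendritic cells, was higher by 1.05 ± 0.19 and 2.12 ± 0.15. The exception was Cxcr4, the receptor of Cxcl12, lower than in Cd209a cells (−0.79 ± 0.20, edgeR adjusted p = 0.00418) and higher than in type 1 cells (1.31 ± 0.18).

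**Figure D2:**
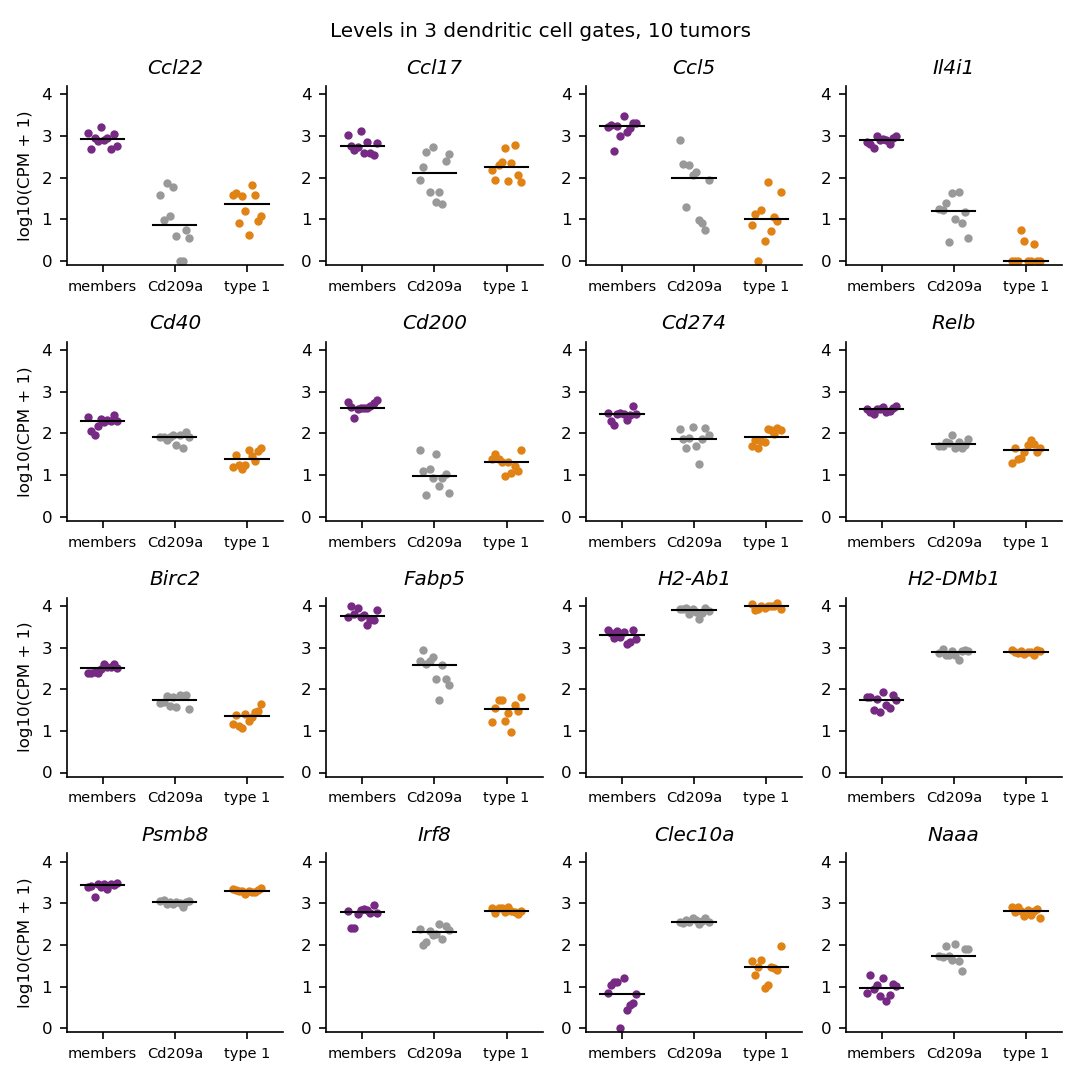
Levels of 16 genes on a log10(CPM + 1) scale in members, Cd209a dendritic cells and type 1 dendritic cells. Each point is 1 of the 10 tumors (classes with under 20 cells are drawn too) and the bar is the median. Ccl22, Il4i1, Relb and Birc2 are separate from both other classes, H2-Ab1 and H2-DMb1 lie below them, and Irf8 overlaps with type 1 cells.

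Most costimulatory genes tested were higher in members and none was lower. Of 9 tested, 7 were higher than in Cd209a cells (median 1.14) and 8 than in type 1 cells (median 2.75). Cd40, which receives help from T cells, was at 92.4 to 269 CPM (median 198) against 44.2 to 108 in Cd209a and 13.2 to 43.5 in type 1 cells, higher by 1.17 ± 0.15 and 3.01 ± 0.20. Cd80, a ligand of the T cell receptor CD28, differed by 1.14 ± 0.23 and 2.20 ± 0.21. Cd86, its partner, differed little, by 0.33 ± 0.13 (edgeR adjusted p = 0.0446) and 0.68 ± 0.12, and the first of these calls was lost in 12 alternatives. Cd70, the ligand of CD27 on T cells, had no UMI in either other class. It had 234 UMIs in members and 0 in Cd209a cells, at least 54.5-fold higher (a floor of 3 counts for the whole group), and 244 against 0 in type 1 cells, at least 76.7-fold higher. Tnfrsf4 and Tnfrsf9, which encode the receptors OX40 and 4-1BB and are better known from activated T cells, were at 119 to 232 and 101 to 299 CPM in members. In type 1 cells a single Tnfrsf4 UMI was counted against 912 in members, a ratio of 860 with a 95% counting interval of 154 to 34024. The T cell genes of the marker list summed to 0 to 51.2 CPM (median 4.71) in members, which were chosen for 0 UMIs of the T cell gene Cd3e. The part of T cell RNA in these levels was not tested.

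Regulatory genes went both ways against Cd209a cells and were mostly higher than in type 1 cells. Of 11 tested, 7 were higher and 4 lower than in Cd209a cells, and 8 were higher, 1 lower and 2 not past the threshold against type 1 cells. Cd274 was at 162 to 444 CPM (median 284) and higher by 1.79 ± 0.19 and 1.79 ± 0.17. Pdcd1lg2, the other ligand of PD-1, was higher by 3.37 ± 0.19 and 1.44 ± 0.16. Cd200, whose receptor restrains myeloid cells, was at 239 to 629 CPM (median 416) against 2.3 to 39.3 and 8.28 to 38, a difference of 5.06 ± 0.26 and 4.57 ± 0.19 without overlap between the classes. Il4i1 was at 520 to 1016 CPM (median 794) in members, at 1.88 to 44.4 in Cd209a cells and at 0 in most type 1 samples, where 4 UMIs were counted in all 10 tumors. Socs2, a feedback inhibitor of cytokine signaling, differed by 5.03 ± 0.20 and 6.96 ± 0.25, and Fas, the death receptor, by 2.01 ± 0.34 and 5.59 ± 0.32. Aldh1a2, which makes the vitamin A derivative retinoic acid, was low at 3.85 to 70.4 CPM. It was counted 123 times in members against 1 UMI in Cd209a cells, a ratio of 85.9 (counting interval 15.1 to 3420), and was higher than in type 1 cells by 1.84 ± 0.47. Socs1, Socs3, Lgals9 and Havcr2 were the 4 genes lower than in Cd209a cells, and Havcr2, which encodes TIM-3, was also lower than in type 1 cells (−3.44 ± 0.27).

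Among the cytokines, Il12b separated members from Cd209a cells without a single UMI on the other side. Il12b, the p40 subunit shared by interleukins 12 and 23, had 1583 UMIs in members and 0 in Cd209a cells of the same tumors, at least 369-fold higher. Type 1 cells had 0 to 71.3 CPM (median 10.4) against 57.7 to 1978 (median 178), a difference of 3.97 ± 0.37 (edgeR adjusted p = 2.73e-07). Il12a, the other subunit of interleukin 12, had 0 UMIs in the 628 tumor members and Il23a, that of interleukin 23, had 18. Il15ra, which presents interleukin 15, was higher by 3.66 ± 0.30 and 4.09 ± 0.32, Il6 by 2.59 ± 0.41 and 2.85 ± 0.46, and Ebi3 by 2.38 ± 0.41 and 1.95 ± 0.34. Tgfb1 was lower in both comparisons (−1.73 ± 0.16 and −0.51 ± 0.15, the second call lost after thinning), as was Il18 (−3.29 ± 0.55 and −3.23 ± 0.48). Il1b was high in all classes and in members ran from 785 to 2199 CPM, lower than in Cd209a cells (−0.65 ± 0.20) and higher than in type 1 cells (1.01 ± 0.19). Over the list, 4 of 8 tested genes were higher and 3 lower against Cd209a cells, and 7 of 9 higher and 2 lower against type 1 cells.

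The list of NF-kB and survival genes, a pathway that switches on much of the maturation program, was higher in 9 of 13 genes and lower in 0 against Cd209a cells (median 1.26), and higher in 13 of 13 against type 1 cells (median 1.80). Relb, the subunit of the non-canonical arm, was at 293 to 447 CPM (median 379) in members, 43 to 91.4 in Cd209a cells and 18.2 to 68.5 in type 1 cells. Members lay above both classes in every tumor, by 2.68 ± 0.14 and 3.27 ± 0.19. Nfkb2, its partner, was higher by 1.64 ± 0.14 and 2.53 ± 0.20, and Rel by 1.39 ± 0.13 and 1.77 ± 0.13. Nfkb1, of the canonical arm, differed by only 0.39 ± 0.14 from Cd209a cells (edgeR adjusted p = 0.0303, lost in 11 alternatives) and by 1.89 ± 0.11 from type 1 cells. Traf1, an adaptor of TNF family receptors, was higher by 1.26 ± 0.15 and 2.53 ± 0.12, and Birc2, an inhibitor of apoptosis, by 2.57 ± 0.15 and 3.94 ± 0.13. Bcl2l14, a BCL2 family member, differed more from Cd209a cells (5.99 ± 0.32) than from type 1 cells (1.47 ± 0.24), where it was higher in 7 of 9 tumors.

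Windows of 300 bases at gene starts (250 before the start, RefSeq, build GRCm38.p6) were searched for the NF-kB consensus of 10 bases, in both orientations of its asymmetric form, because Relb, Nfkb2 and Rel themselves were higher. A match stood in 9.07% of 24796 windows of all genes and in 11.1% of 6030 windows of genes tested in both comparisons. Genes higher in members in both comparisons had one in 13.3% of 1265 windows, and genes lower in both in 10.5% of 904. By list, a match stood in 8 of 18 windows of NF-kB and survival genes (44.4%), 4 of 9 of MHC class I, 3 of 8 of the chemokines, 2 of 6 of costimulation, 1 of 8 of MHC class II, 1 of 12 of the regulatory genes (8.33%) and 0 of 9 of the migration genes. Nfkb2 itself gave 3 of the 8 NF-kB and survival windows, and 2 of these overlap and share a match. The lists here keep the genes of the gates. In the migration, chemokine, costimulation, regulatory and NF-kB lists, 36 genes were higher in both, among them Ccr7 and Fscn1, which chose the cells. Of the 36, 25 had a window and 5 a match: Bcl2l1, Nfkb2, Pdcd1lg2, Rel and Tnfrsf9. These shares describe letters in a window and no binding was measured. The windows of 3 of the 5 genes are shown because their matches begin nearer the start (the first at −39 in Nfkb2, with another closer to the start, −92 in Rel and −43 in Tnfrsf9) than those of Bcl2l1 (−242) and Pdcd1lg2 (−244), a choice made after the matches were seen, with matched bases in capitals (overlapping matches run together). They are Nfkb2 at chr19:46304487-46304786 (plus strand), Rel at chr11:23770920-23771219 (minus strand) and Tnfrsf9 at chr4:150927749-150928048 (plus strand).
Nfkb2: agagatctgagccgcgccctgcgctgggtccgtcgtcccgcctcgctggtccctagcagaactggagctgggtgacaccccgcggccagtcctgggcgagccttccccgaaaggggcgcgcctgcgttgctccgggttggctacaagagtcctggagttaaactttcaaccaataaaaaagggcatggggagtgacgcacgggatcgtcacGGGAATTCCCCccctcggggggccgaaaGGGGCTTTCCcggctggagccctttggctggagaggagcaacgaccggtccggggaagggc
Rel: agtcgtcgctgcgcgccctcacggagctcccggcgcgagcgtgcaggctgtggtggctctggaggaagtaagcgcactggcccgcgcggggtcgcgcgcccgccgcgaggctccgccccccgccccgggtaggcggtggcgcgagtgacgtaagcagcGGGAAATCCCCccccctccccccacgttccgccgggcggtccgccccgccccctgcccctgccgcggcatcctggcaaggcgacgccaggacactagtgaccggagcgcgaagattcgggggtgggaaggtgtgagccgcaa
Tnfrsf9: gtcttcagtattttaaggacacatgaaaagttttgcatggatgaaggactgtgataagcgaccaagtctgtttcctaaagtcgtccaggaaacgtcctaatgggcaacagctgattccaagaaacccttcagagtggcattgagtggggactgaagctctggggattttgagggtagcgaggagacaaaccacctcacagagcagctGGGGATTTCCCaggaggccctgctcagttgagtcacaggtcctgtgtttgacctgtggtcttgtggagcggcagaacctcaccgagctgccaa

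Antigen presentation genes went in opposite directions. MHC class II genes, which present peptides to CD4 T cells, were lower in 9 of 10 tested genes against Cd209a cells (median −1.60) and in 10 of 10 against type 1 cells (median −1.60), H2-Aa left out since all gates used it. H2-Ab1 was at 1184 to 2625 CPM (median 2036) in members, 4800 to 9078 in Cd209a cells and 8072 to 12007 in type 1 cells. Every tumor of the members lay below all others, by −1.89 ± 0.12 and −2.27 ± 0.12. Cd74, the invariant chain, was lower by −1.23 ± 0.11 in both. H2-DMa and H2-DMb1, the peptide editor of the class II compartment, were lower by more (−2.55 ± 0.11 and −3.74 ± 0.18 against Cd209a cells, −2.73 ± 0.11 and −3.85 ± 0.14 against type 1 cells). Ciita, the master activator of class II genes, was lower by −1.63 ± 0.17 and −1.62 ± 0.21. March1, a ubiquitin ligase that removes class II and CD86 from the surface of resting cells, was nearly absent with 0 to 3.78 CPM in members against 3.81 to 39.5 and 33.2 to 102. MHC class I genes, which present to CD8 T cells, were higher in 9 of 10 against Cd209a cells and in 7 of 10 against type 1 cells, and lower in 0. H2-K1 was higher by 0.70 ± 0.11 and 1.19 ± 0.09, and B2m by 0.63 ± 0.10 and 1.24 ± 0.09. Nlrc5, the class I activator, was higher by 1.09 ± 0.20 and 2.03 ± 0.17. The immunoproteasome gene Psmb9 was higher than in Cd209a cells (1.28 ± 0.11) and did not pass against type 1 cells (−0.11 ± 0.11).

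Receptors for uptake, microbes and tissue chemokines were lower than in Cd209a cells in every tested gene. Against that class 9 of 9 tested uptake and sensing genes were lower (median −2.71), among them Fcer1g, the signaling chain of Fc receptors (−2.71 ± 0.17), which was higher than in type 1 cells (0.43 ± 0.10, a call lost in 3 alternatives). Against type 1 cells the same list split, with 3 higher, 2 lower and 2 not past the threshold. The macrophage and monocyte genes of the marker list summed to 1365 to 4913 CPM in Cd209a cells. They summed to 65.4 to 641 in members and 613 to 1712 in type 1 cells. The part of monocyte RNA in these differences was not tested. Chemokine receptors other than Ccr7 were lower in 5 of 5 tested genes against Cd209a cells and in 3 of 4 against type 1 cells. Ccr2, which brings monocytes and their progeny into tissue, was at 0 to 18.9 CPM (median 1.86) in members and 84.3 to 235 in Cd209a cells. Ccr9, the gut homing receptor, was lower by −5.57 ± 0.33 and −3.61 ± 0.40. The part of plasmacytoid dendritic cell RNA, which the Cd209a class also held, in the first of these differences was not tested.

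**Figure D3:**
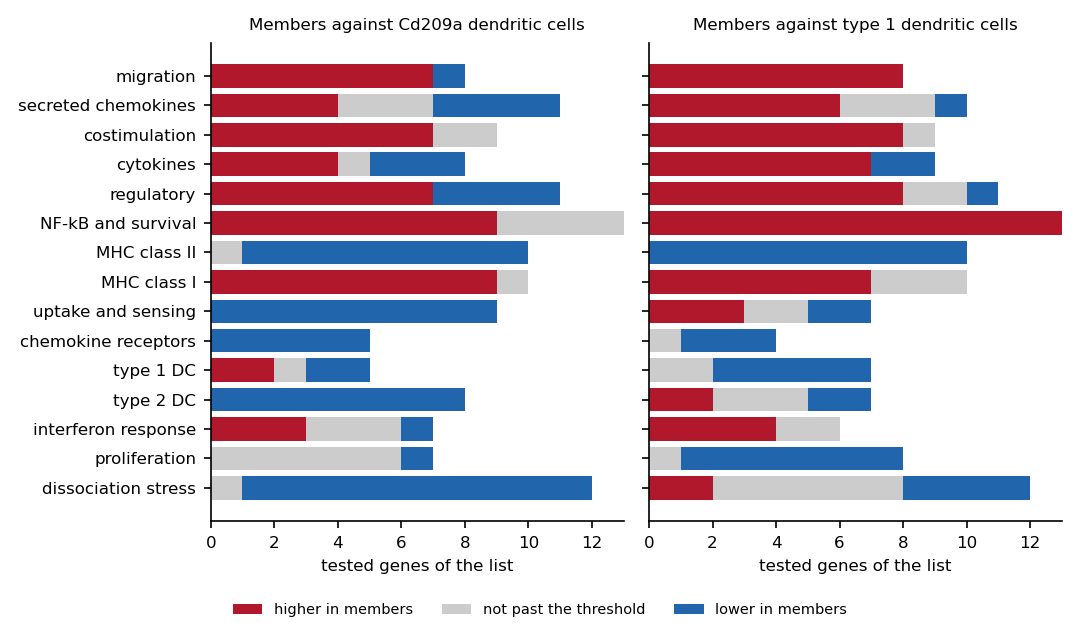
Tested genes of 15 gene lists that were higher (red), lower (blue) or not past the threshold (grey) in members against Cd209a dendritic cells (left) and type 1 dendritic cells (right), at edgeR adjusted p under 0.05. Bar length is the number of genes tested. MHC class II is blue in 9 of 10 and 10 of 10 genes, and NF-kB and survival is red in 9 of 13 and 13 of 13.

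Lineage genes of members matched neither class in full. Of the type 1 genes, the transcription factors Irf8 and Batf3 were higher than in Cd209a cells (1.51 ± 0.11 and 2.30 ± 0.19) and did not pass against type 1 cells (−0.25 ± 0.19 and −0.26 ± 0.11). Irf8 was at 250 to 913 CPM in members, 95.8 to 315 in Cd209a cells and 559 to 792 in type 1 cells. The other type 1 genes were low: Naaa, a lipid-cleaving enzyme, was at 3.43 to 18.5 CPM against 445 to 823 in type 1 cells (−6.09 ± 0.20), Wdfy4, needed for cross-presentation, differed by −5.37 ± 0.15, Itgae by −6.21 ± 0.24, and Tlr3, a sensor of double-stranded RNA, had 2 UMIs against 385. All 8 tested type 2 genes were lower than in Cd209a cells, with Clec10a at 0 to 15.1 CPM against 311 to 449 (−5.71 ± 0.26). Sirpa and Irf4 were between the classes, lower than in Cd209a cells (−1.36 ± 0.21 and −0.78 ± 0.22) and higher than in type 1 cells (1.85 ± 0.33 and 2.73 ± 0.55). Zbtb46, a factor of conventional dendritic cells, was higher in both comparisons (1.93 ± 0.23 and 1.68 ± 0.26), while Itgax, the gene of CD11c, was lower in both (−2.41 ± 0.20 and −2.47 ± 0.19). Aire, a regulator of self-antigen expression, had 1 UMI in all tumor members. Il7r, the receptor chain for interleukin 7, was at 144 to 348 CPM and higher by 1.57 ± 0.20 and 5.36 ± 0.31.

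The genes of largest fold named by rule included several outside the lists. Against Cd209a cells the 10 highest were Fscn1 (in the gate), Il12b, Apol7c, Scin, Nudt17, Mreg, Gm13546, Serpinb6b, Cacnb3 and Fabp4. Apol7c, of the apolipoprotein L family, had 1271 UMIs against 0 (at least 296-fold higher) and Scin, an actin-severing protein, had 1239 against 0 (at least 288-fold higher). Nudt17 was at 90.7 to 212 CPM (median 173) and had a single UMI in each of the other classes, giving ratios of 643 (counting interval 115 to 25433) and 881 (158 to 34844). Serpinb6b, a protease inhibitor, was at 393 to 1607 CPM and higher by 6.90 ± 0.34 and 2.82 ± 0.15. Against type 1 cells the highest were Fscn1, Il4i1, Nudt17, Tnfrsf4, Fabp4, Fabp5, Ccl5, Mreg, Socs2 and Tnfrsf9. Fabp5, a fatty acid binding protein, was the most abundant of them at 3467 to 10062 CPM (median 5741) against 8.3 to 65.2 in type 1 cells (7.72 ± 0.19) and 53.2 to 853 in Cd209a cells (4.40 ± 0.28). Fabp4, its relative, had 373 UMIs against 0 in type 1 cells (at least 117-fold higher) and varied widely between tumors, from 1.72 to 202 CPM.

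The genes most reduced against Cd209a cells were Cd209a (in the gate), Cd209d, Cox6a2, Siglech, Clec4b1, Klk1, Cd7, Clec10a, Ccl9 and Ccr9. Cd209d had 0 UMIs against 331, at least 158-fold lower. Siglech, Cox6a2 and Klk1 belong to the plasmacytoid list fixed for the check of other cell types, and without the Siglech-positive Cd209a cells 2870 of 5574 genes differed. Against type 1 cells the most reduced were Qpct, Tlr3, Sept3, Itgae, Rab7b, Naaa, Xcr1 (in the gate), Wdfy4, Asb2 and Ckb. Qpct, an enzyme that modifies the ends of peptides such as chemokines, had 3 UMIs against 581, a ratio of 205 (counting interval 69.9 to 998), and Ckb, a creatine kinase, was at 9.49 to 65.4 CPM against 641 to 1056 (−5.04 ± 0.25).

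Interferon, division and handling genes were read as further lists. Isg15 was higher than in both classes (1.32 ± 0.13 and 2.46 ± 0.31), and over the list 3 of 7 tested genes were higher and 1 lower against Cd209a cells, and 4 of 6 higher against type 1 cells. Division genes were lower in 7 of 8 against type 1 cells (Top2a −3.00 ± 0.50) and in 1 of 7 against Cd209a cells. Early genes that tissue dissociation can induce were lower in 11 of 12 against Cd209a cells, with Fos at −1.27 ± 0.12 and Jund at −1.59 ± 0.12, and in 4 of 12 against type 1 cells with 2 higher. RNA of other cell types was present and uneven. The 5 neutrophil genes summed to 61.6 to 11623 CPM in members, 93.2 to 7017 in Cd209a cells and 45.3 to 5283 in type 1 cells, with 0 of 5 called in either comparison, and 27 of 628 members had at least 20 UMIs of S100a8 and S100a9. The 6 epithelial genes summed to 24 to 2240 CPM in members, with 1 called lower against Cd209a cells and 0 against type 1 cells. When cells with a high load of either were left out, 3321 genes differed from Cd209a cells and 3667 from type 1 cells.

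Some inflammatory genes stood apart in single tumors. Il12b was highest in tumor 6 at 1978 CPM and next highest in tumor 9 at 379. In tumor 6, 16 of 32 members had a UMI of it and 1 member held 175 of the 523 UMIs. Without that cell the tumor was at 1359 CPM and still above the others. The same tumor had the highest Tnf (113 CPM, next 29.6), Il6 (68.1, next 34) and Ccl4 (393, next 65.7), each again with 1 member holding between 38.5% and 56.7% of the UMIs. The highest member had 8334 UMIs in total for Il12b, Tnf and Il6, and 5134 for Ccl4. Members of tumor 6 also had the highest neutrophil RNA (S100a9 at 6258 CPM, Retnlg at 1785) and the highest Fos (492) and Jun (344), whose part in these levels was not tested. Tumor 5 had the highest Rsad2, an antiviral interferon gene, at 214 CPM, but 1 of 42 members held 84 of the 88 UMIs and without it the level was 9.95. Oasl1 in tumor 5 was at 192 CPM, and at 124 without its highest member. Tumor 3, with 26 members the least sampled, had no UMI of Cxcl9 against 97.8 to 583 CPM in the others, the lowest Ccl5 (435) and Cxcl10 (34.6), and the highest Epcam (966), of which 1 member of 62475 UMIs held 76.5%. All members of this tumor held 259771 UMIs, and the part of that 1 cell in the low Ccl5 and Cxcl10 was not tested.

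**Figure D4:**
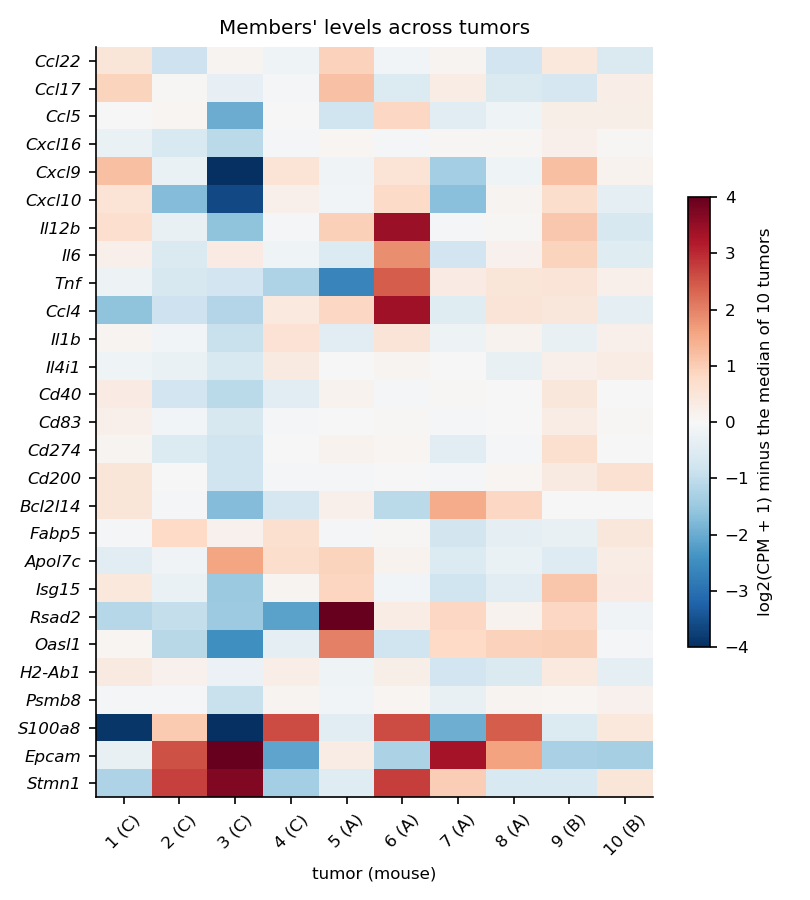
Levels of 27 genes in the members of each tumor, as log2(CPM + 1) minus the median of the 10 tumors (colors stop at 4 in either direction). Columns are tumors with their mouse. Il12b, Tnf and Ccl4 stand out in tumor 6, Rsad2 in tumor 5, and Cxcl9 and Cxcl10 are low in tumor 3.

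Between the 3 mice no gene of the members passed the test. In the edgeR quasi-likelihood F test over 10 tumors 0 of 5794 genes (0%) passed an adjusted p of 0.05, 757 had an unadjusted p under 0.05, and DESeq2 called 181. Tob2, an inhibitor of proliferation, and Atp5mpl shared the lowest edgeR adjusted p of 0.0795, in opposite directions. Tob2 was at 81.5 to 119 CPM in the tumors of mouse C, 173 to 207 for mouse B and 197 to 275 for mouse A. Atp5mpl was at 216 to 281 CPM for mouse C, 109 to 131 for mouse B and 136 to 146 for mouse A.

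Members were not alike in their cytokine and chemokine genes. Il12b was seen in 184 of 628 tumor members (29.3%), from 18.3% in tumor 2 to 50% in tumor 6, in 0 of 513 Cd209a cells and in 34 of 368 type 1 cells (9.24%). Thinned to 2000 UMIs per cell, the shares were 16.8% of 625 members and 1.91% of 366 type 1 cells. Neutrophils showed it in 0.0435% of cells and epithelial cells in 0 of 9519. Ccl17 was seen in 40.6% to 76.2% of members by tumor, Ccl5 in 42.3% to 80.3% and Cxcl9 in 0% to 58.9%. Members with an Il12b UMI were deeper, with a median of 10323 UMIs against 7751.5, and levels are given as CPM for that reason, as a description with no test.

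Il12b-positive members differed from the others in both directions. The CPM values were pooled over tumors, so differences between tumors enter their size, while the counts of tumors compare members within each tumor. Bcl2l14 was at 542 CPM in them and 164 in the other members, higher in 9 of 10 tumors, and Cd70 at 69.2 against 29.5, higher in 9. Ccl22 was at 1213 against 627 (9 of 10), Cd40 at 251 against 158 (9 of 10), Cd83 at 440 against 296 (9 of 10) and Irf8 at 722 against 490 (9 of 10). Cd274 (272 and 278) and Cd200 (455 and 465) were nearly level, and Cd80 (122 and 109.6) was higher in 5 tumors and lower in 5. Tnfrsf9 was at 162 against 192 and Ccl5 at 1490.3 against 1771, each lower in 7 of 10. Fabp5 was at 3474 CPM against 8105 and lower in 10 of 10 tumors, H2-Ab1 at 1542 against 2287 and lower in 9, and Cxcl10 at 227 against 478 and lower in 8. The neutrophil gene S100a8 moved with the split as well, at 380.2 CPM against 1628 and lower in 7 of 10 tumors, and its part in these values was not tested. Split by Ccl17 in place of Il12b, Ccl22 was at 1105 CPM with and 361 without (higher in 10 of 10), and Cxcl10 at 232 against 660 (lower in 10 of 10), while Il12b itself differed little (306 and 257). In the split by Il12b, Ccl17 was at 923 CPM with and 507 without, higher in 7 of 10 tumors. A UMI of Ccl17 was found in 117 of the 184 Il12b-positive members, against 360 of all 628 tumor members (57.3%).

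**Figure D5:**
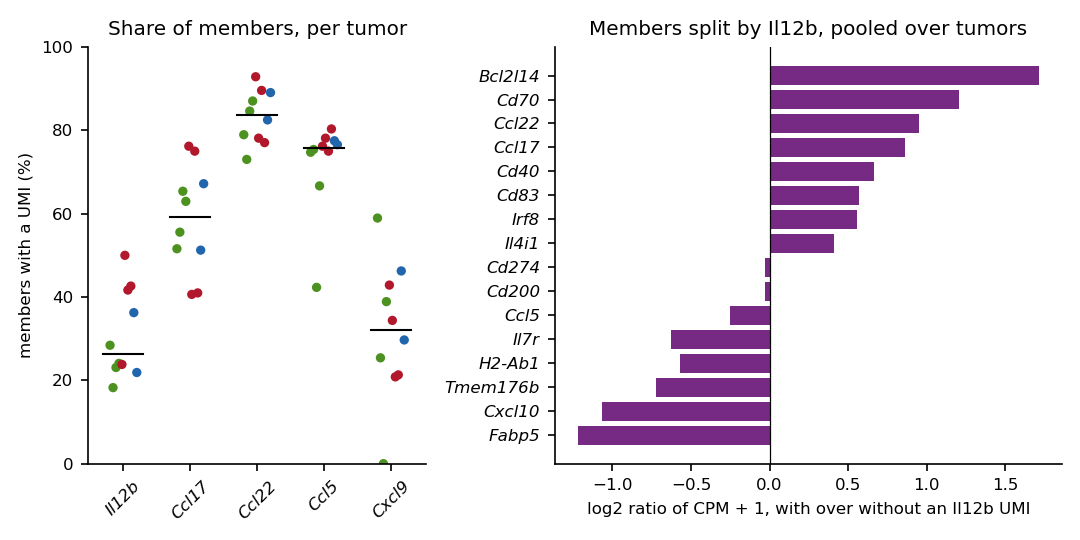
Left, percentage of members with a UMI of 5 genes in each of 10 tumors, colored by mouse (A red, B blue, C green), with the median as a bar. Right, log2 ratio of pooled CPM + 1 in the 184 tumor members with an Il12b UMI over the 444 without. Bcl2l14 is highest (542 against 164 CPM) and Fabp5 lowest (3474 against 8105).

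The 9 members of mucosa held 106728 UMIs in all and were too few for a gene test. Pooled values are therefore given with exact Poisson intervals that cover counting error only. Most of these UMIs (83179) came from the 5 members of mucosa 1 (mouse C), and 23549 from the 4 of mucosa 2 (mouse A). The pooled values thus mainly describe 1 library. Among the highest doublet scores, removed in an alternative, were 1 member of mucosa 1 and 2 of mucosa 2. Il4i1 (1068 CPM, 881 to 1283) and Relb (449.7, 331.6 to 596.3) were slightly above their highest tumors (1016 and 446.7). Ccl22 (721, 569 to 902) lay within the range of the tumors (474 to 1599). All 9 cells had a UMI of Il4i1 and of Ccl5. Ccl17 was at 103 CPM (51.4 to 184) against at least 357 in every tumor. Il1b was at 56.2 CPM (20.6 to 122) against at least 785, Cd86 at 28.1 (5.8 to 82.1) against at least 185, and Fabp5 at 2146 (1877 to 2442) against at least 3467. Apol7c was higher in the mucosa cells, at 1949 CPM (1693 to 2233) against at most 651 in a tumor, and was seen in 6 of 9 of them. Cxcl10 and Cxcl2 had 0 UMIs there. Single cells weighed on several of these values: without its highest cell Apol7c was at 1187 CPM, Ccl17 at 39.7 and Ccl22 at 514. Of epithelial RNA, Krt8 was at 871 CPM in these cells against at most 632 in tumor members, but 1 cell held 52 of the 93 UMIs and the rest were at 435. Epcam was at 871 CPM, and at 300 without its highest cell. That was below tumor 3 (966) and above the next highest tumor (388). S100a8 had 1 UMI (9.37 CPM, 0.237 to 52.2), an interval that covers the lowest tumors. The part of epithelial and neutrophil RNA in these values was not tested.

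The share of members was set against that of 5 other cell types across the 10 tumors. With CD8 T cells (0.202% to 1.4% of barcodes) Pearson's r was 0.769 (permutation p = 0.0115, adjusted over the 5 relations 0.0575) and Spearman's rho 0.733 (permutation p = 0.0209, adjusted 0.104). It was 0.726 on deviations from the mean of each mouse and 0.683 without the 2 tumors farthest from the median share of CD8 T cells. It did not pass after adjustment. For type 1 dendritic cells r was 0.555 (permutation p = 0.0973) and rho 0.6 (permutation p = 0.073). There r was 0.716 on deviations from the mean of each mouse and 0.2104 without the 2 farthest tumors. For Foxp3 T cells r was −0.452 (permutation p = 0.19) and rho −0.455, for Cd209a cells r was 0.317 (permutation p = 0.367) and rho 0.236, and for B cells r was 0.0228 (permutation p = 0.932) and rho 0.127. No adjusted p of the 5 relations was below 0.05. All shares of a tumor have the same denominator, and single mice hold at most 4 tumors, too few for values of their own.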

How the data were processed

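Droplet-based 3′ single-cell RNA sequencing of 10 colon tumors and 3 samples of adjacent mucosa from 3 mice was analyzed. Per the labels, Cell Ranger 6.0.0 and build mm10 were used (the methods of the study name another version), and the authors deposited unnormalized UMI counts per gene and barcode for each library, with called cells as barcodes. Read alignment and cell calling by the authors decide which barcodes and genes have counts. Symbols were taken from the files (32158 of 32285 gene IDs are in GENCODE vM21). March1 stands under that older symbol, and Clec7a and Mx1 were not analysed here.

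A barcode entered with 500 or more UMIs, 200 or more genes and a mitochondrial share below 25% (5188 to 10817 per library). Members and the comparison classes were gated on raw UMIs. The members, gene lists and tests were chosen with earlier results of these data known. Doublets were not removed in the main analysis, and removal of the highest doublet scores (0.8% per 1000 barcodes) was an alternative. Summed counts were tested with edgeR 4.0.16 (quasi-likelihood, filterByExpr, TMM) in R 4.3.3, and DESeq2 1.42.0 was an alternative. Named genes came from the lists and, in each comparison, from the 10 largest folds in either direction among genes past the threshold with at least 50 CPM in the higher class and one direction in all libraries. Between mice, the rule (the 10 lowest p past the threshold) named none, and Tob2 and Atp5mpl were chosen after their values were seen. Levels (CPM) are summed counts scaled to 1000000 UMIs. Shares were tested by exact permutation with NumPy 2.4.6, and relations with 100000 permutations. SciPy 1.17.1 gave the binomial and Poisson intervals and the adjusted p of the relations. Motifs were searched in RefSeq windows. The tests were checked on simulated data. Replicate numbers do not pair libraries, so the animal code was used, and several tumors share a mouse, so p-values measure the spread between tumors. Alternatives were other gates, denominators, filters, tools, thinning to 2000 UMIs and leaving out each library. Cells with at least 20 UMIs of S100a8 and S100a9 or at least 5 of epithelial genes, and Siglech-positive Cd209a cells, were left out in alternatives added after seeing the data.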

Additional observations from a re-analysis of the deposited data

Results flagged for a closer look

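Over the 10 tumors 92 values were compared (levels of genes named here with a median of at least 10 CPM, and shares). Dixon's 95% limit flags by chance about 1 in 20 groups of independent, normally distributed values. Levels here share a denominator within a tumor, and single cells weigh on several, so that rate is no measure for them. Of the 92 values, 12 had 1 tumor farther from the rest than this limit. In tumor 6 there were 5: Il12b at 1978 CPM, Ccl4 at 393, Tnf at 113, Il6 at 68.1 and the heat shock gene Hspa1a at 163, with next highest tumors at 379, 65.7, 29.6, 34 and 53.9. The highest member for each gene held 33.5% of the Il12b, 38.5% of the Ccl4, 56.7% of the Tnf, 44.4% of the Il6 and 44.2% of the Hspa1a UMIs. It was not the same cell throughout. It had 8334 UMIs in total for Il12b, Tnf and Il6, 5134 for Ccl4 and 4465 for Hspa1a.

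Tumor 5 stood apart in 2 interferon genes, Rsad2 at 214 CPM (next 22.3) and Oasl1 at 192 (next 90.2). A single member held 95.5% of the Rsad2 and 36.7% of the Oasl1 UMIs. In tumor 5 the other classes were at 15.2 CPM of Rsad2 (Cd209a cells) and 0 (type 1 cells).

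Tumor 3 stood apart in 5 values: Apol7c at 651 CPM (next 402), Epcam at 966 (next 388) and the microtubule regulator Stmn1 at 370 (next 193) were its highest, and Cd83 at 219 (next 317) and Psmb8 at 1428 (next 2183) its lowest. One member held 73.4% of the Apol7c UMIs, and without it the tumor was at 180 CPM. One member of 62475 UMIs held 76.5% of the Epcam and 54.2% of the Stmn1 UMIs, leaving 299 and 223 CPM without it. All members of tumor 3 together held 259771 UMIs, so this cell also weighs on the low Cd83 and Psmb8. Its part in them was not tested.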

How the results depend on the processing

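The share of members in tumors over mucosa kept its direction in every alternative. As a share of the 3 dendritic cell gates the difference was 12.4 percentage points with p = 0.48. Without mucosa 1 or mucosa 2 and its mouse, the difference in the share of barcodes was 0.662 and 0.755 points. The exact permutation p was 0.0667 in both, where the smallest possible p is above 0.05. Without mucosa 3 and its mouse the difference was 0.549 points with p = 0.08. There the smallest possible p is below 0.05, so the call was lost. Without 1 tumor the difference was 0.607 to 0.698 points. Without the pairing by mouse (no replicate block, free permutation) it was 0.621 points, p = 0.0035. The difference of the share between mice passed in no alternative. Genes called against Cd209a cells were 2284 of 4249 with no replicate block (library ignored) and 1334 of 2196 after thinning, and 2864 to 3357 without 1 tumor. Against type 1 cells they were 2466 of 4449 with no replicate block and 1147 of 1834 after thinning, and 3210 to 3724 without 1 tumor. Fewer genes were tested in both of these fits, since fewer pass the filter. Between mice DESeq2 called 181 genes and edgeR without a filter 393 of 15281, against 0, and 0 to 7 were called without 1 tumor (7 without tumor 3, 4 without tumor 9, 1 without tumor 8). Of 168 gene values named, 157 kept direction and call in every alternative in which the gene was tested. Cd86 and Nfkb1 against Cd209a cells lost their call in 12 and 11 of them, Top2a in 2, and against type 1 cells Flt3 lost it in 7, Fcer1g in 3 and Tgfb1 in 1. Cxcl9 against Cd209a cells gained a call in 2 and Batf3 against type 1 cells in 1. Cxcl9 against type 1 cells, not called, changed sign with no replicate block (0.17), no filter (0.015), sums per mouse (0.20), thinning (0.26) and without tumors 2, 3 or 7 (−0.27 to 0.21 over all tumors left out), Psmb9 with thinning (0.086) and Irf8 with sums per mouse (0.043). The cause was not tested. The test of tumor against mucosa members and its alternatives could not be run, as no mucosa library held 10 members. With 26 to 126 members per tumor, levels under about 10 CPM rest on few UMIs.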
